A study of Mus musculus with 2 samples.

Results

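The genes described here are solute carriers, the membrane proteins that move sugars, amino acids, ions, vitamins and metabolites into and out of cells and organelles. They were taken from the authors' deposited table of their comparison of the diets as every entry whose gene symbol begins with Slc and a digit. The glucose and fructose carriers Slc5a1, Slc2a2 and Slc2a5, the carnitine carrier Slc25a20 and the amino acid carrier subunits Slc3a2 and Slc7a8 were left out. That left 28 probe sets of 27 genes in 16 numbered families, out of 1625 probe sets and 1559 named genes in the table. By name 26 of the 27 are transporters. The other, Slc9a3r1, encodes a scaffold protein that was named as a regulator of the sodium-proton exchanger Slc9a3.

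Samples labelled as jejunum came from male C57BL/6J mice aged 10 weeks, with 1 Affymetrix array per diet. Both groups started at 4 weeks of age and had 2 weeks of acclimation. They ate either regular chow (AIN76) or a diet with 20% glucose (HGD) for 4 weeks. The mice of both groups carried no allele or agent that the labels mention. The labels do not say how many animals went into an array. With 1 array per diet no difference below has a replicate check, and no p-value is given.

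In the small intestine, carriers in the brush border take nutrients from the lumen, often driven by the inward sodium gradient, and other carriers on the basolateral side pass them towards the blood. Family numbers group carriers by sequence, so that families 6 and 7 mostly carry amino acids and related compounds, families 20 and 34 phosphate, and family 25 metabolites across the inner mitochondrial membrane. Other families exchange ions, take up metals or recover vitamins.

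Each gene has 2 kinds of value. The first is the signal log ratio (SLR) of the authors' deposited table, high-glucose against control on the log2 scale in steps of 0.1, so that -1 stands for a 2-fold lower value. The second is the MAS5 signal of each array, a linear intensity in arbitrary units for 1 probe set. The high-glucose array was the dimmer of the pair, at a median log2 ratio of -0.97 (1.96-fold lower) over the 11315 probe sets that counted as expressed. A relative log2 ratio is the log2 ratio of the signals minus this shift. A probe set counted as expressed at a geometric mean signal of 9.45 or more over both arrays, after signals below 2.9 had been set to that floor. Where a pair of signals is given, the control array comes first.

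The SLR and the deposited signals disagreed, and the files do not settle which of them represents the labelled jejunum. Over the 1067 named genes of the comparison that counted as expressed, the SLR of the authors' deposited table and the relative log2 ratio had a Pearson correlation of 0.093 and a Spearman correlation of 0.072, and their signs matched in 57.5%. As deposited, without removing the shift, the signs matched in 72.8%. In that case the dimmer array sets most signs, with a median log2 ratio of -0.98, and 782 of the 1067 genes had a negative SLR. The higher share is therefore no sign of closer agreement between the sources. Each value below is therefore given by its source.

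The signals did not follow the labelled tissue in every respect, which was checked with lists of genes typical of a tissue. Only genes named in the authors' comparison were matched, and listed genes outside it were not looked up. These were 7 of 31 small intestinal and 2 of 23 hepatocyte-typical carriers, with 4 of 12 enterocyte and 2 of 12 hepatocyte markers. The check therefore covers a selected part of each of these lists. Members typical of small intestinal epithelium were Slc13a2, Slc34a2, Slc5a4a, Slc5a8 and Slc7a7, and 4 of these 5 had signals below the median of both arrays, with only Slc13a2 counting as expressed. Of the other matched genes of that list, which the rule left out or missed, Slc46a1 (57.2 and 27.6) counted as expressed and Slc5a1 (4.6 and 0.8) did not. Both members typical of hepatocytes (Slc25a10 and Slc39a14) lay above the median of both arrays. Among markers, both named hepatocyte genes, Plg (3968.3 and 1994.0) and Serpina1a (5068.6 and 4065.3), and 2 of the 4 named enterocyte genes lay above the 90th percentile on both arrays. The 4 enterocyte genes ranged from 16.6 to 2817.8 on the control array and from 9.5 to 1587.6 on the high-glucose array, and all counted as expressed. The 5 named Paneth cell genes (0.2 to 8.7 on the control array, 0.2 to 9.9 on the high-glucose array) and the 7 named B cell genes (0.2 to 9.6 and 0.2 to 8.3) did not count as expressed, nor did the 1 named enteroendocrine gene. Of goblet cell genes 2 of 4 and of smooth muscle genes 2 of 7 counted as expressed. Since affinity varies between probe sets, the place of a signal against a percentile of its array is only a rough guide to abundance. In tissue RNA fewer cells of a type and less RNA per cell cannot be told apart.

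Genes of pancreatic acinar cells differed between the arrays. All 5 named acinar genes were above the 90th percentile of the control array (223.8 to 1725.7) and 0 of them on the high-glucose array (4.7 to 39.3). By SLR the lists moved in another pattern. The authors' deposited table put all 7 B cell genes below 0, from -5.5 to -1.6 with a median of -3.7, against -0.5 for the carriers. It put all 7 smooth muscle genes (0.8 to 1.3), all 5 Paneth cell genes (0.6 to 1.0) and all 4 goblet cell genes (0.5 to 0.9) above 0. In the authors' deposited table the hepatocyte genes Plg and Serpina1a stood at 4.2 and 1.2, the 4 enterocyte genes lay between -0.6 and 0.7, and the enteroendocrine gene stood at -0.3. The 5 acinar genes ranged from -1.3 to 1.2 by SLR in the authors' deposited table, and from -4.83 to -4.08 by relative log2 ratio of the signals. The part of these other cell types in the carriers' values was not tested.

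The solute carriers were mostly listed lower on the high-glucose diet by SLR, while their signals lay around the array-wide shift. In the authors' deposited table, 22 of the 28 probe sets stood below 0 (78.6%), against 64% of all 1625 listed probe sets, and their median SLR was -0.5 against -0.4. The table held small values unevenly, with 403 probe sets between -0.5 and 0 but 22 between 0 and 0.5, and 7 of the carriers' 22 negative values fell in that range. Among values of size 0.5 or more, 15 of 21 carrier probe sets were negative (71.4%), against 53.1% of 1200 probe sets in the authors' deposited table. On the signals, 16 of the 27 genes counted as expressed (59.3%), against 68.4% of the 1559 named genes, and 1 of these 16, Slc9a3r1, lay at least 2-fold below the shift. Among 1067 expressed named genes, 5.34% lay that far below and 3.84% that far above, where 0 of the 16 carriers lay. A single gene of 16 (6.25%) is near that background, which is 9.18% for both directions together.

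**Figure D1:**
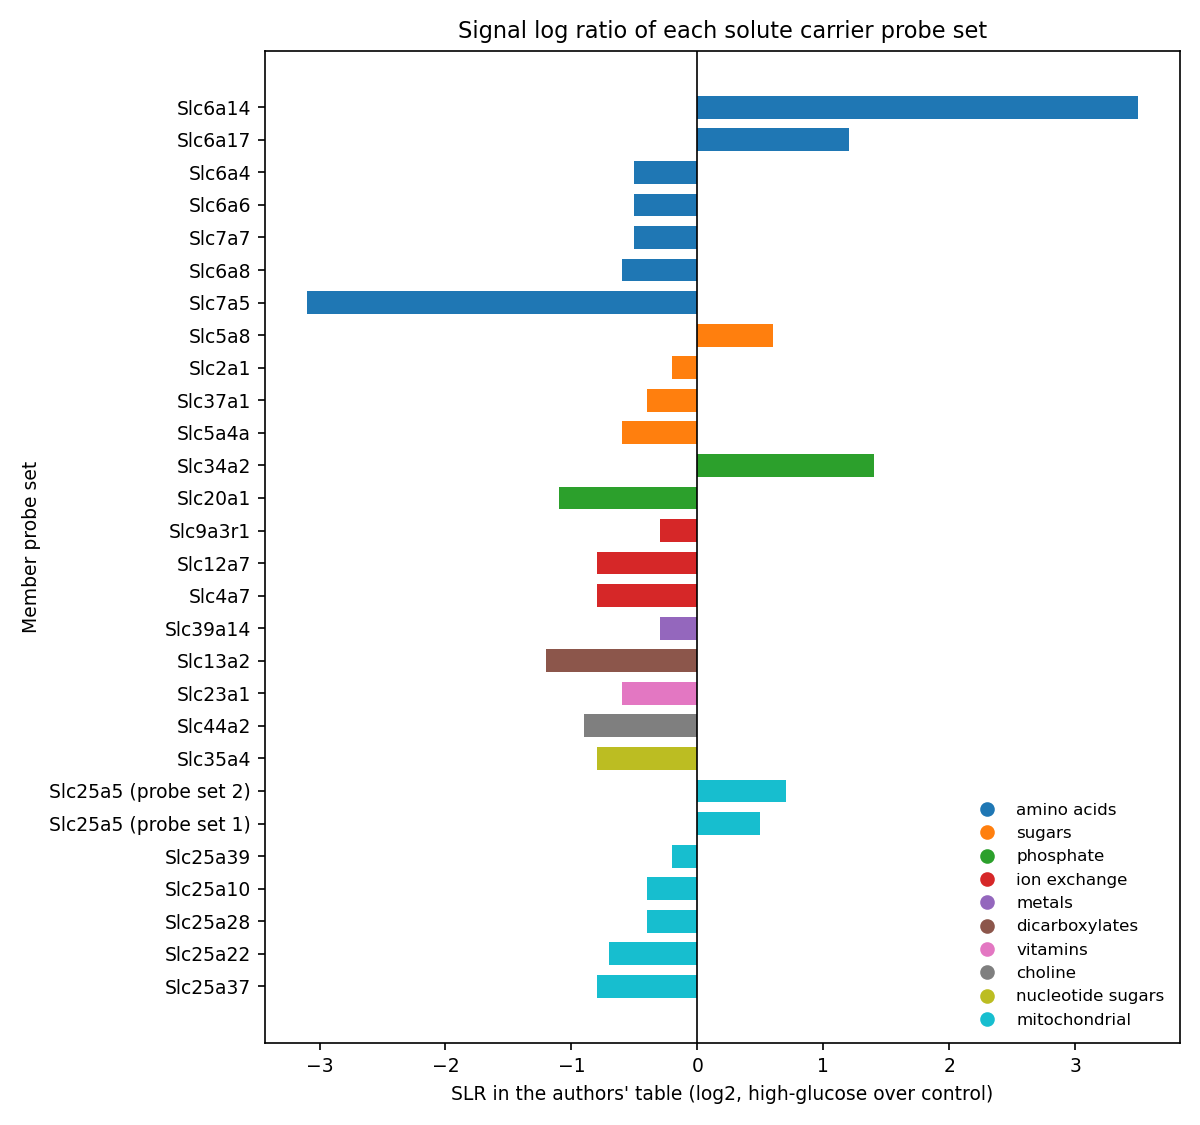
The bars give the SLR from the authors' deposited table (log2 scale, high-glucose over control) for each of the 28 probe sets, grouped and coloured by transport class. Most bars point below 0, while Slc6a14 at 3.5 and Slc7a5 at -3.1 reach farthest in each direction.

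The widest SLR values belonged to amino acid carriers, and none of the 7 genes of that class counted as expressed on the signal arrays. With the floor at the 40th percentile in place of the 25th, Slc6a6 and Slc6a8 counted as expressed, and Slc13a2 and Slc37a1 no longer did. The high-glucose signals of Slc6a6 and Slc6a8 lay under that higher floor and were raised to it. Their relative log2 ratios then had a median of -0.30, against -0.77 and -1.04 with the lower floor. Slc6a14, a sodium- and chloride-driven carrier of neutral and basic amino acids, was given an SLR of 3.5 by the authors' deposited table. Its signals were 3.8 (control) and 0.2 (high-glucose), with only the former above the floor. Against the floor the drop was at least 1.31-fold, less than the array-wide 1.96-fold, so the signals do not settle on which side of the shift it lay. Slc7a5, the light chain of a large neutral amino acid exchanger, was given an SLR of -3.1 by the authors' deposited table. Its signals of 1.5 and 1.9 were both under the floor, so they give no ratio. Neither gene thus had signals above the floor on both arrays.

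The heavy chain that Slc7a5 and Slc7a7 both need, Slc3a2, was given an SLR of -0.8 by the authors' deposited table and had signals of 72.2 and 32, a relative log2 ratio of -0.20. Slc7a8, another light chain, had an SLR of -1.2 there and signals of 10.8 and 10.9. Slc7a7, the basolateral light chain that exports basic amino acids, was given an SLR of -0.5 by the authors' deposited table and had signals of 6.4 (control) and 4.4 (high-glucose). The light chain Slc7a5 was thus listed farther below 0 than its heavy chain or the other light chains.

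The other members of family 6 carry amino acids, their derivatives or small amines. Slc6a17, a neutral amino acid carrier of synaptic vesicles, was given an SLR of 1.2 by the authors' deposited table and had signals of 9.7 and 5.1. The taurine carrier Slc6a6 had an SLR of -0.5 in that deposited table and signals of 17.1 and 5.1, and the creatine carrier Slc6a8 an SLR of -0.6 and signals of 16.1 and 4.0, a relative log2 ratio of -1.04. The serotonin carrier Slc6a4 was given an SLR of -0.5 by the authors' deposited table and had signals of 5.6 and 1.0. Relative to the shift, Slc6a6 lay below at -0.77 and Slc6a17 on it at 0.04, while Slc6a4, like Slc6a14, was under the floor on the high-glucose array, which leaves its side of the shift unsettled. None of these 5 genes counted as expressed. Without the filter on low signals Slc6a8 would join Slc9a3r1 as a second gene 2-fold or more below the shift.

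Both phosphate carriers passed a size of 1 by SLR, in opposite directions. Slc34a2, the sodium-phosphate cotransporter of the small intestinal brush border, was given an SLR of 1.4 by the authors' deposited table. Its signals were 12.3 (control) and 6.1 (high-glucose), a relative log2 ratio of -0.04, and it did not count as expressed. Slc20a1, a widely expressed sodium-phosphate cotransporter that also serves as a retrovirus receptor, was given an SLR of -1.1 by the authors' deposited table. Its signals of 61.9 and 28.4 gave a relative log2 ratio of -0.15. Both genes therefore lay close to the array-wide shift on the signals.

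Slc13a2, which takes up citrate and succinate with sodium across apical membranes, was given an SLR of -1.2 by the authors' deposited table. Its signals of 10.1 and 10 were nearly equal, the highest relative log2 ratio among the 16 expressed carriers at 0.96, and its SLR and relative ratio had opposite signs. After scaling by a 2% trimmed mean it passed 2-fold, at 1.01, while it fell to 0.74 after quantile normalization and 0.69 after loess centring. On the signals as deposited it stood at -0.01. Over the whole group, 3 of 28 probe sets had an SLR of 1 or more in the authors' deposited table (10.7%, against 18.1% of the table) and 3 an SLR of -1 or less (10.7%, against 9.85%). Of these 6 genes, Slc20a1 and Slc13a2 were the 2 that counted as expressed.

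Slc9a3r1, which tethers transporters and receptors to the actin cytoskeleton beneath the brush border, had signals of 192.4 (control) and 40.3 (high-glucose). The relative log2 ratio was -1.28, a 2.43-fold lower value. It lay between -1.40 and -1.17 when the scaling, floor or filter was changed and the shift was still removed. Both signals lay above the floor, so changing the floor or filter altered only the shift that was subtracted. The gene has a single listed probe set, so the choice of probe set could not be varied. Its SLR in the authors' deposited table was -0.3, the same sign with a far smaller size. As a yardstick, the relative log2 ratios of 19 genes that have 2 expressed probe sets differed with an SD of 0.56 within the pair. This is the spread of a difference between probe sets on the same arrays, and it holds no variation between animals or arrays. The array-wide spread of the 1067 named genes had an SD of 0.72.

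Promoters are shown for the one gene past 2-fold on the signals, Slc9a3r1, and for the brush border carriers Slc34a2 and Slc13a2, which were listed in opposite directions. They are from RefSeq on GRCm38.p6, 5′ to 3′ along the gene's strand, from 250 bases before to 50 bases after its start. Capitals mark the motifs searched on both strands, which were the GC box GGGCGG, the CAAT box CCAAT, the TATA box TATAAA and the E-box CACGTG.
Slc9a3r1 promoter, chr11:115163091-115163390, plus strand: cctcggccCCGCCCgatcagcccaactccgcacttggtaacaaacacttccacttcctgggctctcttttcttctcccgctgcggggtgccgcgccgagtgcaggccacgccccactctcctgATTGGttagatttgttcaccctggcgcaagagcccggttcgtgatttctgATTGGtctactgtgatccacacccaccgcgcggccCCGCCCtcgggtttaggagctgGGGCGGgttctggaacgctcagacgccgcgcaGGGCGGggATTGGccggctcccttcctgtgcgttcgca
Slc34a2 promoter, chr5:53049103-53049402, plus strand: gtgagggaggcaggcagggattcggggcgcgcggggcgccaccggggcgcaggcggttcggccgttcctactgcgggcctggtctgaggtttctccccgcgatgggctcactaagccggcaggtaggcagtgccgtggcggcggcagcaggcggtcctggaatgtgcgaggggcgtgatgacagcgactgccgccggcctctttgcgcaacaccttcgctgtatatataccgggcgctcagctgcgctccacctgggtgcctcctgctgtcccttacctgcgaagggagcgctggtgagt
Slc13a2 promoter, chr11:78422185-78422484, minus strand: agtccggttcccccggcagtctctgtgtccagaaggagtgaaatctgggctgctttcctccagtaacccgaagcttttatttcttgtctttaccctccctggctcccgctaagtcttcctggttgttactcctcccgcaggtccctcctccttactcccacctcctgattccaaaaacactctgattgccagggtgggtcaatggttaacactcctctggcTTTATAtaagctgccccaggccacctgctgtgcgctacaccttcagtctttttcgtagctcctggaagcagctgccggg
The Slc9a3r1 window held 4 GC boxes and 3 CAAT boxes, the Slc13a2 window 1 TATA box, and the Slc34a2 window none of these letters. A promoter sequence was matched for 20 of the 27 genes. Of these 20, 15 had a GC box (75%), against 66.5% of the 1181 genes of the comparison table with a promoter and 38.2% of all genes. An E-box was found in 2 of the 20 genes (10%), against 13.1% of the table's genes, a TATA box in 5 (25%, against 13.1%), and a CAAT box in 10 (50%, against 42.6%). Over all 32851 windows of this length, 35.7% held a GC box, 7.15% an E-box, 13.6% a TATA box and 37.4% a CAAT box. A match describes these letters and shows no binding.

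**Figure D2:**
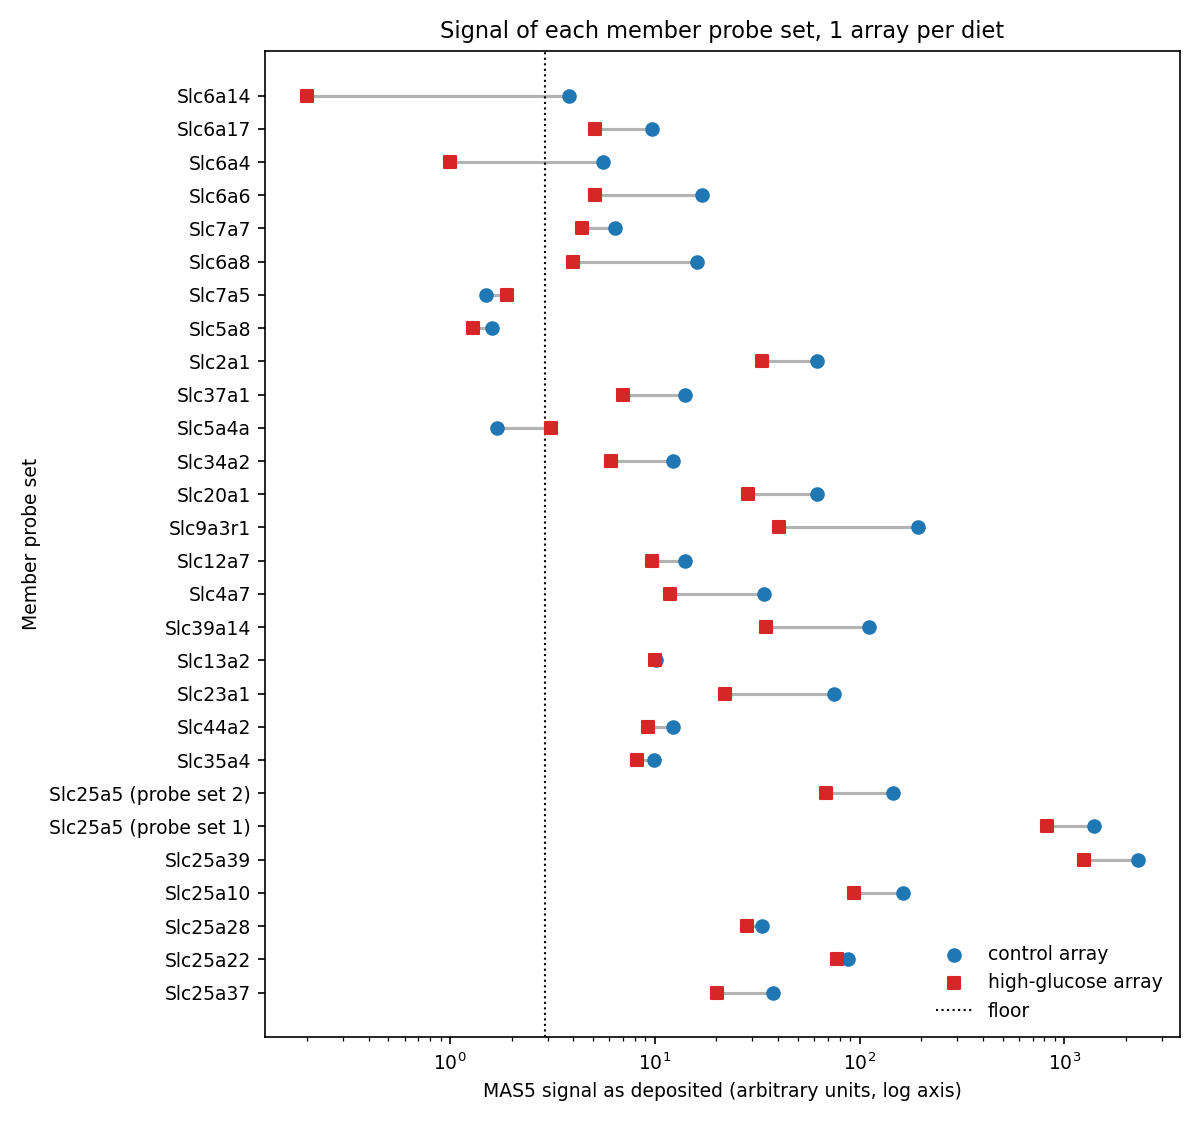
Each row gives the deposited MAS5 signal (arbitrary units, log axis) of a probe set on the control array (circle) and the high-glucose array (square), with the floor of 2.9 dotted. The signals span 0.2 to 2296.8, and the square lies left of the circle in all rows but Slc7a5 and Slc5a4a.

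The mitochondrial carriers of family 25 were the largest group among expressed members, and all 6 genes counted as expressed. Slc25a5, the adenine nucleotide translocase that exchanges ADP for ATP, had a pair of probe sets assigned to different UniGene clusters in the authors' deposited table, with SLR values of 0.5 and 0.7. The brighter had signals of 1402.5 and 821.4, a relative log2 ratio of 0.20, and the other 145.6 and 68.3, a relative log2 ratio of -0.12. The pair shared the sign of the SLR and straddled the shift on the signals. Slc25a5 was the only family 25 gene of these 6 listed above 0 by SLR.

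Slc25a39, the carrier that brings glutathione into mitochondria, had signals of 2296.8 and 1251.0 and the authors' deposited table put its SLR at -0.2. Its probe set carries the suffix x, which by Affymetrix's convention means that some of its probes also match other transcripts. The dicarboxylate carrier Slc25a10, which exchanges malate and succinate for phosphate, had signals of 163.4 and 94.4 and an SLR of -0.4 in that deposited table. Both lay near the shift, at relative log2 ratios of 0.09 and 0.18.

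The glutamate carrier Slc25a22 and the iron importer Slc25a28 (mitoferrin 2) were the nearest of the family to equal signals. Slc25a22 had 87.9 (control) and 77.5 (high-glucose), a relative log2 ratio of 0.79, and Slc25a28 had 33.3 and 28.3, a relative log2 ratio of 0.74. In the authors' deposited table they had SLR values of -0.7 and -0.4. The other mitoferrin, Slc25a37, which supplies iron for haem in red cell precursors, had signals of 37.8 and 20.2 and an SLR of -0.8 in that deposited table. Its relative log2 ratio of 0.07 and that of Slc25a28 lay apart by little more than the SD of 0.56 between probe sets of a gene. That SD does not measure the variation of a gap between different genes.

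By their brighter probe sets, all 6 mitochondrial genes lay above the shift, and their relative log2 ratios had a median of 0.19 against -0.01 over all expressed named genes. The sign rests on the shift, since all 6 were lower as deposited (median log2 ratio -0.78), and Slc25a39 turned negative after quantile normalization (-0.12) or loess centring (-0.15). Without the filter, Slc25a39 and Slc25a37 were negative, at -0.02 and -0.05. Over all expressed named genes the median of -0.01 lay just below the shift, so fewer of those genes lay above it than below. Among mitochondrial carriers that the rule left out or missed, Slc25a51 lay below the shift at -0.18. Slc25a45 at 0.11 and Slc25a20 at 0.64 lay above it.

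The sugar carriers left after the rule were listed near 0 or had little signal. Slc2a1, the glucose transporter of most cells and of the basal membrane of some epithelia, had signals of 62.2 and 33.3, a relative log2 ratio of 0.07, and the authors' deposited table put its SLR at -0.2. Slc37a1, which exchanges glucose 6-phosphate for phosphate, had signals of 14 and 7.0, a relative log2 ratio of -0.03, and an SLR of -0.4 in that deposited table. Its relative log2 ratio was 0.02 after 2% trimmed mean scaling and -0.30 after quantile normalization or loess centring.

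Family 5 is named for sodium-glucose cotransport, and its listed members had signals around the floor. Slc5a4a, a relative of the intestinal glucose cotransporter, had signals of 1.7 and 3.1 and the authors' deposited table put its SLR at -0.6. With its control signal set to the floor, its relative log2 ratio was 1.07, opposite in sign to the SLR. Without the filter on low signals, which also changes the shift, 0 carriers lay 2-fold or more above it. Slc5a8, which takes up lactate and short-chain fatty acids rather than sugar, had signals of 1.6 and 1.3 and an SLR of 0.6 in that deposited table. Neither counted as expressed. For comparison, Slc5a1 had an SLR of -0.3 there and signals of 4.6 and 0.8, while Slc2a2 had an SLR of -0.6 and signals of 1426.9 and 511.1.

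The authors' deposited table put the genes of ion exchange below 0 by SLR. The sodium bicarbonate cotransporter Slc4a7 had an SLR of -0.8 there, and signals of 34 and 11.9 with a relative log2 ratio of -0.54. The potassium chloride cotransporter Slc12a7 also had an SLR of -0.8 in that deposited table, but signals of 14.1 and 9.7 with a relative log2 ratio of 0.43. The ratio of Slc12a7 was 0.25 after quantile normalization and 0.22 after loess centring. With the same SLR these genes lay on opposite sides of the array-wide shift.

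Single members of other families carried metals, vitamins and choline. The ascorbate carrier Slc23a1 had signals of 74.9 and 22, a relative log2 ratio of -0.80, and the authors' deposited table put its SLR at -0.6. Slc39a14, a carrier of zinc, iron and manganese, had signals of 111.7 and 34.9, a relative log2 ratio of -0.71, and an SLR of -0.3 in that deposited table. With Slc9a3r1, these were the 3 expressed members at least 1.5-fold below the shift (18.8%, against 13.7% of named genes).

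Above the shift by that factor lay Slc13a2, Slc25a22 and Slc25a28, also 18.8% against 13.7%. Slc44a2, a choline transporter-like protein, had signals of 12.3 and 9.3, a relative log2 ratio of 0.57, and the authors' deposited table put its SLR at -0.9. The ratio of Slc44a2 was 0.35 after quantile normalization and 0.32 after loess centring. Slc35a4, of the nucleotide sugar transporter family, had signals of 9.9 and 8.2, an SLR of -0.8 in that deposited table, and did not count as expressed. The probe sets of both carry the suffix x.

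**Figure D3:**
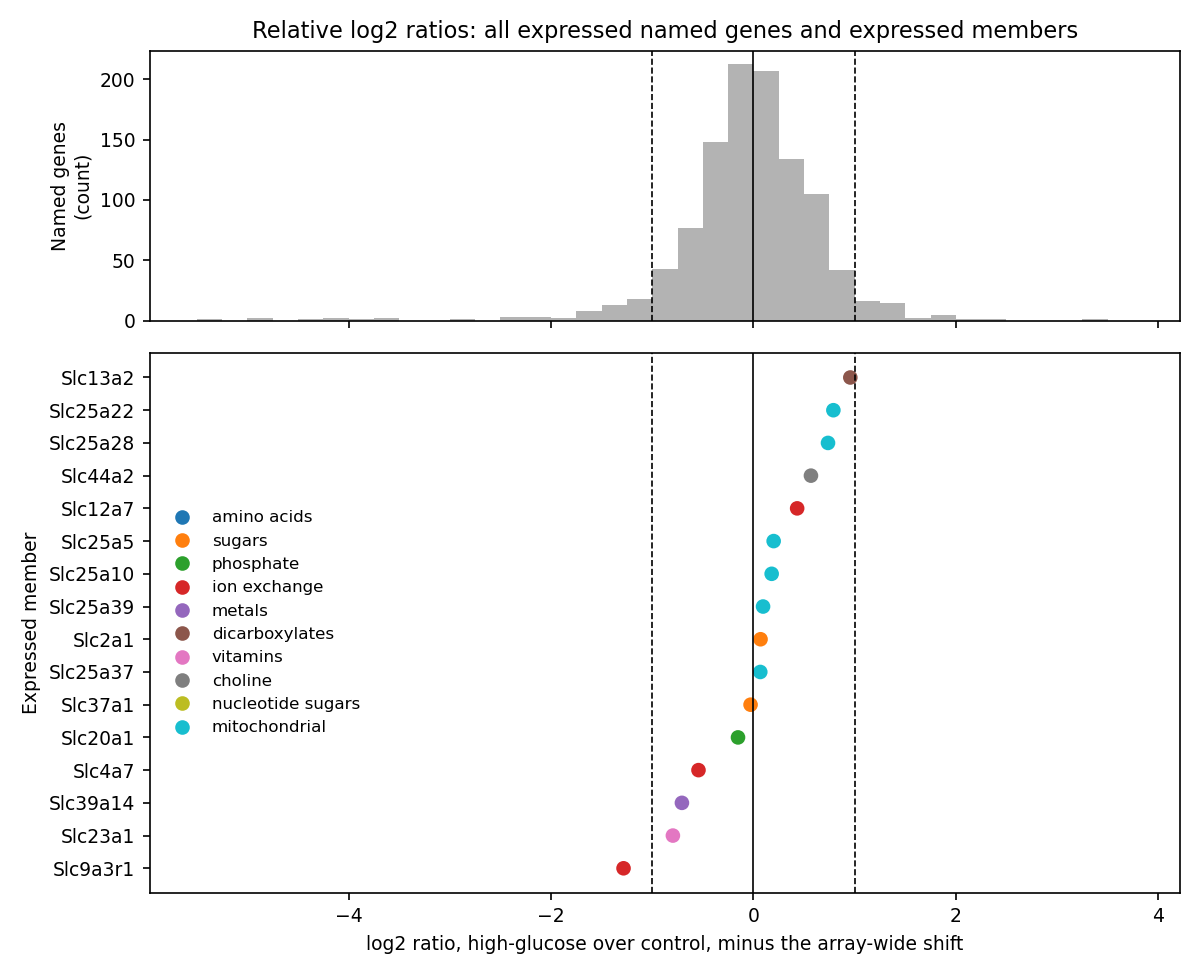
The upper panel counts the 1067 expressed named genes by relative log2 ratio, and the lower panel places each of the 16 expressed members on the same axis, coloured by transport class, with dashed lines at 2-fold. Slc9a3r1 at -1.28 is the one member outside the lines.

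The 16 expressed members ranged from -1.28 to 0.96 with a median relative log2 ratio of 0.08 and an interquartile range of -0.25 to 0.47. Over the 1067 expressed named genes the median was -0.01 and the interquartile range -0.32 to 0.33. Above the shift lay 10 of the members and below it 6, and 10 lay within 1.5-fold of it. As deposited, all 16 had the lower signal on the high-glucose array, 6 of them at least 2-fold lower (37.5%, against 47.5% of named genes).

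The SLR and the signals did not order these genes alike. Over the 16 expressed members the SLR of the authors' deposited table and the relative log2 ratio gave a Pearson correlation of -0.235 and a Spearman correlation of -0.244, and the signs matched in 7 of the 16. The sign count depends on removing the shift, since 15 of the 16 had a negative SLR and all 16 the lower deposited signal on the high-glucose array, so that 15 of 16 signs matched as deposited. Among the expressed named genes, 782 of 1067 had a negative SLR. The coefficients describe 16 genes with no independent replicates. Slc13a2 and Slc9a3r1 show the extremes, the former with the lowest SLR and the highest relative ratio of the 16, the latter with the lowest relative ratio and an SLR nearer 0 than the median of the carriers in the authors' deposited table.

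**Figure D4:**
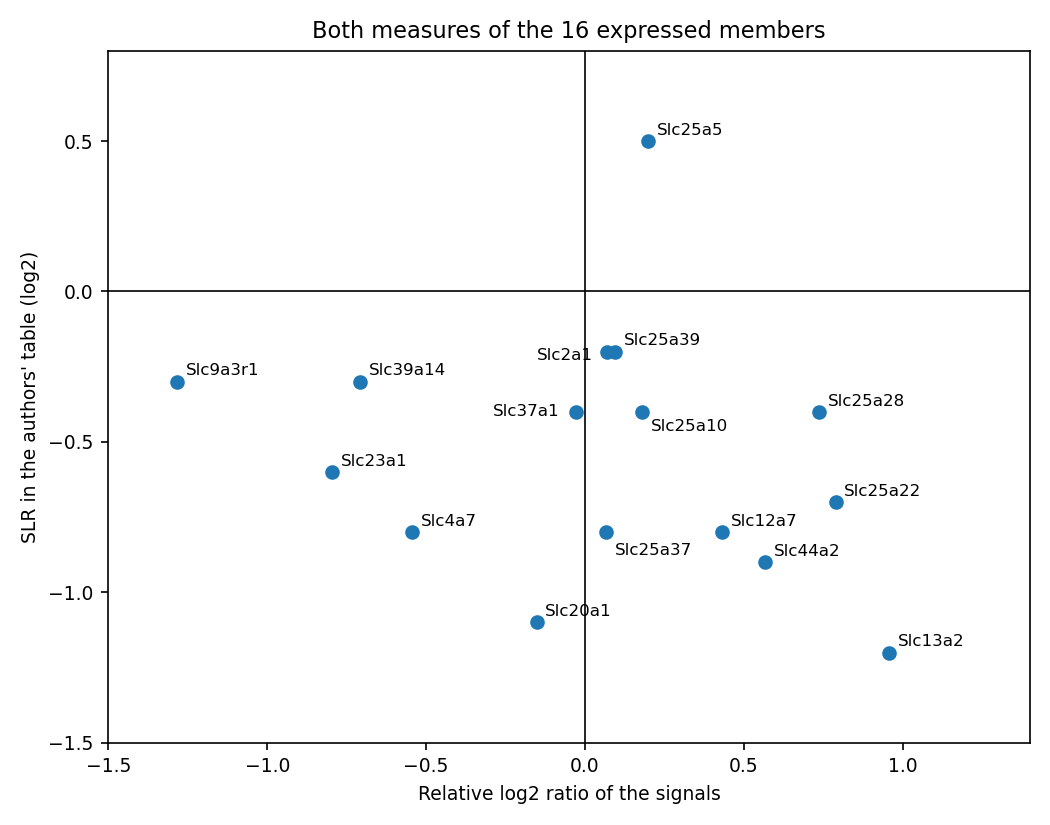
Each point is an expressed member, with its relative log2 ratio of the signals on the horizontal axis and its SLR from the authors' deposited table on the vertical axis. Slc25a5 is the only point above 0 on the vertical axis, while the others spread from -1.28 to 0.96 along the horizontal axis with no common trend.

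Pumps, ABC transporters and aquaporins of the table were read beside the carriers. They were grouped by gene symbol alone, Abcf1 among them, and transport by each was not checked. The authors' deposited table put 11 of their 14 probe sets below 0 by SLR, at a median of -0.45. For the carriers this was 22 of 28, and for all 1625 listed probe sets 64%, so lower listing was not particular to the carriers. None (0) of the 10 expressed pumps, ABC transporters and aquaporins was 2-fold from the shift in either direction, and their median relative log2 ratio was -0.10. Among those past a size of 1 by SLR, the lipid transporter Abca7 stood at -1.5 and the muscle calcium pump Atp2a1 at 1.4 in the authors' deposited table, both without counting as expressed. Of the 6 solute carriers left out by the rule, 5 had a negative SLR there, at a median of -0.7. All 4 of the solute carrier genes that the table lists under older symbols, and which the rule therefore missed, had negative SLR values there. They were Slc46a1, the intestinal folate carrier, at -1.9, Slc25a51, which carries NAD into mitochondria, at -0.8, Slc38a10 at -0.4 and Slc25a45 at -0.3. Slc46a1 had signals of 57.2 and 27.6, a relative log2 ratio of -0.08. The relative log2 ratios of the other 3 were -0.18 for Slc25a51, 0.07 for Slc38a10 and 0.11 for Slc25a45.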

How the data were processed

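RNA of samples labelled jejunum was hybridised to 1 array per diet (6 ug total RNA, biotin-labelled, per the labels' protocols). The deposited intensity values are MAS5 signals made by the authors, per the submitters' processing notes, with neither version nor scaling target given in the sources used here. The second deposited table holds the authors' log2 signal log ratio (SLR) for 1625 of 22690 probe sets (7.16%). The authors' fold column restates the SLR and served only to check the log base. How the authors selected these probe sets is not stated.

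Members were matched by the table's gene symbols, all 27 of them current in RefSeq (GRCm38.p6). A gene took its brightest probe set. Signals under 2.9, the mean of the arrays' 25th percentiles over 22626 probe sets that are not controls, were set to it, and no ratio is given with both under it. Expressed means at or above the 50th percentile of the mean log2 signal. The array-wide shift, the median over expressed probe sets, was subtracted because the arrays were not on a common level. No test was possible. Genes were named when past 2-fold, past an SLR size of 1, among the brightest, or represented by a pair of probe sets, with the other members as examples of their class. The members, lists and alternatives were chosen with earlier results of these data known. The calculation was tested on simulated data with changes planted only in brighter probe sets, so the test did not cover signals near the floor. Python 3.11.15, pandas 2.3.3, numpy 2.4.6 and statsmodels 0.14.6 were used.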

Additional observations from a re-analysis of the deposited data

How the results depend on the processing

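With 1 array per diet, no replicate could be left out. No paired analysis was possible because each diet has a single array. The median relative log2 ratio of the expressed carriers was 0.08 and lay between -0.05 and 0.13 over the alternatives that removed the shift. With the signals as deposited it was -0.89, and the count at least 2-fold lower was 6 in place of 1, since the shift then stays in every ratio. That count was 2 without the filter on low signals, 3 at a 1.5-fold threshold and 0 at a 3-fold threshold. The count at least 2-fold higher, 0 otherwise, was 1 after 2% trimmed mean scaling and 3 at a 1.5-fold threshold. Over all 1067 expressed named genes the counts higher and lower were 41 and 57, against 3 and 507 as deposited, 146 and 146 at 1.5-fold, and 8 and 22 at 3-fold. Without the filter they were 137 and 121 of 1458 genes. Below 0 by SLR, the authors' deposited table held 22 of 28 probe sets, 22 of 27 with 1 value per gene, 19 of 25 without probe sets with the suffix x or s and 15 of 17 among expressed ones. Of all 1625 listed probe sets 64% were below 0, and of the 1067 expressed named genes 782 had a negative SLR. Of the 149 values of single carriers under alternatives, 133 moved by less than 1.5-fold and 16 by more, all 16 with the signals as deposited. This split was largely fixed in advance, since leaving in the 1.96-fold shift moves every ratio by more than 1.5-fold. The floor, filter and trimmed mean settings changed only the constant removed, and averaging probe sets altered only Slc25a5. Quantile normalization and loess centring were the settings that could move genes by differing amounts. The split is therefore no measure of how firm the single values are. The limit to an SLR of size 0.5 or more (15 of 21 negative) was chosen after seeing the data. With the floor at the 40th percentile 16 carriers counted as expressed, with 2 lost (Slc13a2 and Slc37a1) and 2 gained (Slc6a6 and Slc6a8). Both gained genes had high-glucose signals under that higher floor. Low signals limit 11 of the 27 genes, which did not count as expressed.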
